A study of Mus musculus with 24 samples.

Results

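The Dlx genes encode homeodomain transcription factors that mark positions along the embryonic jaws. Described here are Dlx1 to Dlx6, the 6 Dlx genes of the mouse, 6 of the 18193 genes that the array measures through a probe set with a single gene symbol. They were chosen by annotation and not by their values. The array carries 8 probe sets for them, 2 each for Dlx3 and Dlx4, and each gene is represented by its brightest probe set on average across the 24 arrays. All 6 passed the filter on low values (log2 above 6.07 on at least 2 arrays), as did 13837 of the 18193 genes. Total RNA came from jaws dissected on embryonic day 12.5, on the C57B6 background per the labels. The mutant embryos, called knockouts, came from mating Wnt1cre;Alk5fl/+ with Alk5fl/fl mice and were recognised by cleft palate and skull defects, and their control littermates came from the same matings, with no genotype of their own given. Alk5 (gene symbol Tgfbr1) is a type I receptor for TGF-beta. Wnt1-Cre deletes it in neural crest, so jaw epithelium, skeletal muscle and endothelium keep it. Knockouts gave 4 arrays and controls 2 for each of the distal mandible, proximal mandible, distal maxilla and proximal maxilla. The labels do not say which samples share an embryo or a pool.

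Dlx genes stand in the genome as linked pairs whose members point towards each other. In the pharyngeal arches of the mouse they are expressed in a nested code: Dlx1 and Dlx2 throughout the upper and lower parts of the first arch, Dlx5 and Dlx6 in the lower part, and Dlx3 and Dlx4 in a smaller lower region. Endothelin signalling acts upstream of Dlx5 and Dlx6, and mouse embryos without both genes grow a lower jaw with upper jaw features. The pairs and their neighbourhood, in RefSeq coordinates of GRCm38.p6, were as follows. Dlx1 (chr2:71528113-71533981) and Dlx2 (chr2:71543408-71546754) are separated by 9426 bp. Dlx6 (chr6:6863334-6867970) and Dlx5 (chr6:6877801-6882068) are separated by 9830 bp, and Dlx3 (chr11:95120117-95125296) and Dlx4 (chr11:95140447-95146294) by 15150 bp. Noncoding transcripts overlap 3 of the genes: Dlx1as shares 3344 bp with Dlx1, Dlx4os shares 1242 bp with Dlx4, and the locus of Dlx6os1 covers the whole 4637 bp of Dlx6. The positions of the array's probes within these overlaps were not analysed here.

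Promoter windows are shown for Dlx1 and Dlx2, whose levels varied together across the jaws, and for Dlx6os1, which varied with Dlx5. Each spans 300 bases around a transcript start in RefSeq (GRCm38.p6), mostly upstream and on the gene's own strand. Capitals mark TAATT or its reverse complement AATTA, core letters bound by many homeodomains. The Dlx1 window lies inside the span of Dlx1 given above, and that of Dlx6os1 inside its locus (chr6:6820543-6871627). These 2 windows thus belong to starts within those spans and not to their outermost 5' ends.
Dlx1, chr2:71529195-71529494, plus strand: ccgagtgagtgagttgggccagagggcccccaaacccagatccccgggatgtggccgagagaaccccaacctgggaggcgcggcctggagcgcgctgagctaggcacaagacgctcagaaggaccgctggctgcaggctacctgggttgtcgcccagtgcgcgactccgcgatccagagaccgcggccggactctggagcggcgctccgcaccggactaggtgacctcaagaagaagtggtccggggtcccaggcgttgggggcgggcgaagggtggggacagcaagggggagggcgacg
Dlx2, chr2:71546705-71547004, minus strand: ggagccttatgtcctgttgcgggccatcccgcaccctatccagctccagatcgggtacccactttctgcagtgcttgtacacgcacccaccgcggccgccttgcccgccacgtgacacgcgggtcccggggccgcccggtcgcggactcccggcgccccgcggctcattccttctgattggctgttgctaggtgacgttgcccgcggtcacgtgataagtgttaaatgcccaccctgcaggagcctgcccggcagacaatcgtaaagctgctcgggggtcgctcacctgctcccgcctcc
Dlx6os1, chr6:6869484-6869783, minus strand: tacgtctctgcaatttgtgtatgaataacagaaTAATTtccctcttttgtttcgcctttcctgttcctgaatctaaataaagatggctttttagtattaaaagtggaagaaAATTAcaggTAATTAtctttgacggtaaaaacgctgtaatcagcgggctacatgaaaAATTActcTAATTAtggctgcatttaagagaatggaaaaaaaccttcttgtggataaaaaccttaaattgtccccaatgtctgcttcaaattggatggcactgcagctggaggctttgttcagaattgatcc
The Dlx1 and Dlx2 windows held no TAATT on either strand and had a G and C content of 69.3% and 66.3%. RefSeq gives 2 windows for Dlx6os1. The window shown, which lies between Dlx6 and Dlx5, had a G and C content of 35.7% and 7 matches, where TAATTA counts on both strands. The other (chr6:6861634-6861933, minus strand), which lies on the far side of Dlx6, had a G and C content of 35.3% and 4 matches. At least 1 match was present in 27.0% of the 32817 promoter windows of this length, at least 4 in 1.65% and at least 7 in 0.14%. The windows of Dlx4os and Dlx6os2 held 0 and 1 matches. CAGAC or its reverse complement GTCTG, letters of the Smad binding box, occurred 0, 1 and 1 times in the Dlx1, Dlx2 and Dlx6os1 windows and at least once in 49.6% of all windows. Promoters of Dlx3, Dlx4, Dlx5 and Dlx6 were not analysed here.

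The arrays did not form a single batch. The hybridisation controls averaged 11.52 ± 0.32 (log2, SD, n = 8 arrays) in knockouts 1 and 2, 8.92 ± 0.16 (n = 8) in knockouts 3 and 4, and 10.42 ± 0.37 (n = 8) in controls, without overlap. For Gapdh and beta-actin, 3' minus 5' control signal (a sign of RNA degradation) averaged 1.13 ± 0.28, 0.08 ± 0.06 and 0.18 ± 0.04 in the same order. No set holds both genotypes, so genotype and array set cannot be told apart. Of the 3 Tgfbr1 probe sets, the brightest lay between 12.07 and 12.64 in knockouts 1 and 2, between 12.32 and 12.52 in knockouts 3 and 4, and between 11.98 and 12.69 in controls. The next lay between 5.42 and 6.62 in knockouts 1 and 2, between 6.28 and 7.07 in knockouts 3 and 4, and between 7.02 and 8.31 in controls. The dimmest lay between 4.33 and 5.87 in knockouts 1 and 2 and between 7.24 and 7.97 in knockouts 3 and 4 (median 7.71), against 6.64 and 7.57 in controls (median 7.06). The 3 probe sets thus differed in the order of the sets, and whether any falls in the deleted part was not analysed here. Facial mesenchyme markers all passed the filter: the mean level of the 8 markers on an array lay between 11.14 and 11.75 in knockouts 1 and 2 and between 11.78 and 12.08 in knockouts 3 and 4, against 11.24 and 12.17 in controls. Array medians lay between 6.76 and 6.89. Precision is limited by how few arrays each group holds.

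Control 2 went against its labels for jaw end. Over the 13837 genes, the distal minus proximal differences of the control 1 mandible correlated with the knockout mean at 0.48, and those of the control 2 mandible at -0.56. In the maxilla the values were 0.47 for control 1 and -0.29 for control 2. Each knockout correlated with the mean of the other 3 at 0.43 to 0.62 in the mandible and 0.05 to 0.43 in the maxilla. Hand2, a regulator of the distal lower jaw, was higher distally by 0.78, 1.30, 2.45 and 2.33 in the mandibles of knockouts 1 to 4 and by 1.92 in control 1, and was -1.57 in control 2. No sample was relabelled. Differences between ends are therefore read from the knockouts. Comparisons with controls use means over both ends, whose values do not depend on which end is which. The tests of jaws, ends and interactions share a spread over all arrays, grouped by labelled end. The disagreement between the control ends thus enters their SE and p-values, also for the knockouts. Genotype tests use means over the parts of each replicate number and do not depend on the end labels. The jaw labels showed no such break: mandible minus maxilla profiles correlated with the mean knockout profile at 0.56 in control 1 and 0.77 in control 2.

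**Figure D1:**
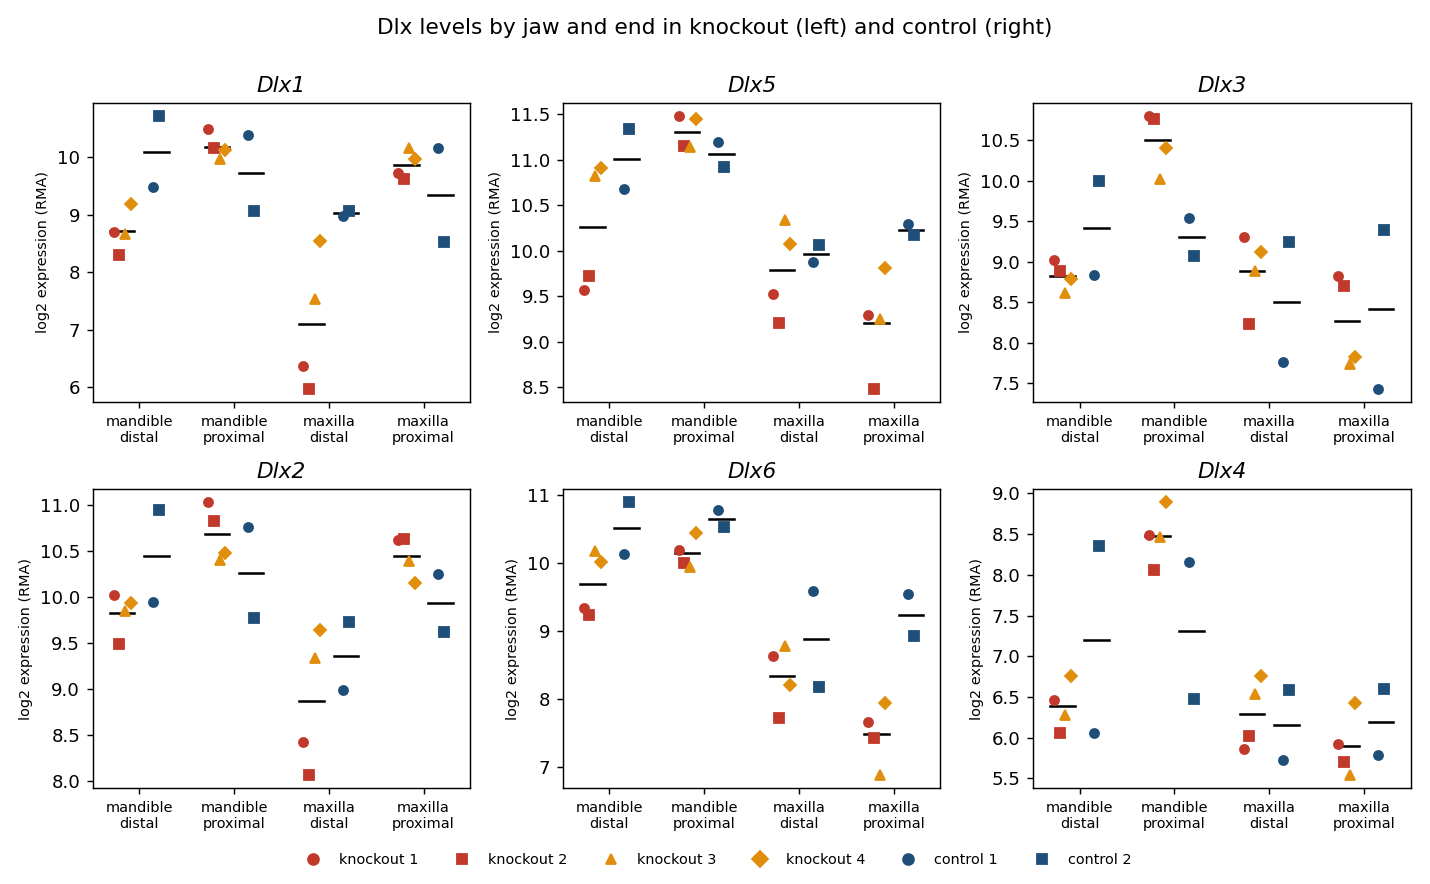
Level of each Dlx gene (log2 RMA value, vertical axis, own scale per panel) in the 4 jaw parts, with knockout arrays left and control arrays right within each part; points are arrays, bars are group means. Dlx1 and Dlx2 are lowest in the distal maxilla of the knockouts, whereas Dlx3, Dlx4 and Dlx5 peak in the proximal mandible and Dlx6 is high in both mandible ends.

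Within the knockouts, Dlx1 and Dlx2 were lowest in the distal maxilla and high at the proximal ends of both jaws. Dlx1 read 8.71, 8.30, 8.67 and 9.19 in the distal mandible of knockouts 1 to 4, against 10.49, 10.16, 9.97 and 10.13 in the proximal mandible. In the maxilla Dlx1 read 6.37, 5.98, 7.54 and 8.55 distally, against 9.73, 9.63, 10.16 and 9.97 proximally. Every distal array of a jaw lay below every proximal array of that jaw, and the distal maxilla of knockouts 1 and 2 lay lowest of all. Dlx2, the neighbour that acts redundantly with Dlx1 in the upper jaw of mice, read 10.02, 9.49, 9.85 and 9.94 in the distal mandible, against 11.03, 10.83, 10.41 and 10.48 in the proximal mandible. Its maxilla values were 8.42, 8.07, 9.34 and 9.65 distally, against 10.62, 10.64, 10.39 and 10.16 proximally. The order of the parts was the same for both genes: proximal mandible and proximal maxilla overlapped at the top, the distal mandible lay apart below them, and it overlapped the distal maxilla at the bottom.

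The distal minus proximal difference of Dlx1 was -2.76 (log2; SE 0.47) in the knockout maxilla and -1.47 (SE 0.47) in the knockout mandible, where a log2 difference of 1 is a 2-fold change. Neither passed the limma test over all genes (adjusted p = 0.0572 and 0.497). With the replicate number as a block the maxilla difference of Dlx1 passed (adjusted p = 0.0479). Of all genes, 0.0361% fell distally in that blocked fit and 0.00723% without the block. Dlx2 differed by -1.58 (SE 0.32, adjusted p = 0.204) in the maxilla and -0.86 (SE 0.32, adjusted p = 0.785) in the mandible. Both genes were lower distally in 4 of 4 knockouts in either jaw, and the Dlx1 maxilla difference ranged between -3.65 and -1.42, larger in knockouts 1 and 2 than in 3 and 4. In the same maxilla arrays, skeletal muscle markers averaged between 5.59 and 7.30 distally, against 5.89 and 9.67 proximally, and epithelial markers between 10.25 and 11.01, against 10.23 and 10.52; none of either list passed the test between the maxilla ends, and their part in the result was not tested.

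Between the jaws, neither Dlx1 nor Dlx2 passed the test. Averaged over both ends, Dlx1 was higher in the mandible than in the maxilla by 1.55, 1.42, 0.47 and 0.40 in knockouts 1 to 4, a mean of 0.96 (SE 0.33, adjusted p = 0.179). The 2 array sets did not overlap in that difference. Dlx2 was 0.60 higher (SE 0.23, adjusted p = 0.270), between 0.26 and 1.01 in single knockouts. At the proximal ends the jaws lay close together, 0.32 (SE 0.47) for Dlx1 and 0.24 (SE 0.32) for Dlx2, whereas at the distal ends the mandible lay higher by 1.61 (SE 0.47, adjusted p = 0.107) and 0.96 (SE 0.32, adjusted p = 0.207).

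Dlx5 and Dlx6, the pair that gives the lower jaw its identity in mice, were higher in the knockout mandible than in the maxilla. Dlx6 read 9.34, 9.24, 10.18 and 10.02 in the distal mandible of knockouts 1 to 4, against 8.62, 7.72, 8.78 and 8.21 in the distal maxilla. At the proximal ends it read 10.19, 9.99, 9.94 and 10.44 in the mandible, against 7.67, 7.43, 6.88 and 7.94 in the maxilla. Mandible and maxilla arrays did not overlap at either end. Here and elsewhere, the share of all genes that separate likewise between jaws or ends was not counted. The mean jaw difference of Dlx6 was 2.01 (SE 0.23, adjusted p = 8.4e-05), with 1.62, 2.04, 2.23 and 2.15 in single knockouts. Dlx5 read 11.48, 11.16, 11.14 and 11.45 in the proximal mandible, against 9.30, 8.48, 9.25 and 9.81 in the proximal maxilla. Its distal values were 9.57, 9.73, 10.82 and 10.91 in the mandible, against 9.53, 9.21, 10.34 and 10.08 in the maxilla. The proximal arrays of Dlx5 did not overlap between the jaws and the distal ones did. Its mean jaw difference was 1.28 (SE 0.22, adjusted p = 0.0040).

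Dlx3 and Dlx4, the pair with the narrowest domain in the code, peaked in the proximal mandible. Dlx4 read 8.49, 8.06, 8.46 and 8.89 in the proximal mandible, against 5.93, 5.70, 5.54 and 6.43 in the proximal maxilla. Distally it read 6.46, 6.06, 6.28 and 6.76 in the mandible, against 5.86, 6.02, 6.54 and 6.76 in the maxilla. The 3 parts other than the proximal mandible overlapped one another and lay close to the filter level of 6.07, so differences among them are near the lower limit of what the array resolves. Dlx3, which also acts in tooth and skin epithelium, read 10.79, 10.76, 10.03 and 10.40 in the proximal mandible, against 8.83, 8.70, 7.74 and 7.83 in the proximal maxilla. Its distal values were 9.02, 8.89, 8.62 and 8.79 in the mandible, against 9.30, 8.23, 8.89 and 9.12 in the maxilla. For Dlx3 too the proximal mandible lay apart from the other parts, which overlapped in turn. Averaged over both ends, Dlx4 was 1.33 higher in the mandible (SE 0.30, adjusted p = 0.0209) and Dlx3 1.08 higher (SE 0.29, adjusted p = 0.0571, or 0.0110 with the replicate number as a block). The additional probe sets kept this order: Dlx3 averaged 7.01 in the distal mandible, 8.11 in the proximal mandible, 7.04 in the distal maxilla and 6.77 in the proximal maxilla, and Dlx4 5.96, 8.34, 5.78 and 5.46 in the same order (n = 4 each).

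In all, 3 of the 6 Dlx genes rose in the knockout mandible over the maxilla (4 with the replicate block), against 1.14% of all genes tested (2.67% with the block). At the proximal ends 4 of the 6 rose, against 0.116% of all genes: Dlx3 by 2.22 (SE 0.41, adjusted p = 0.0307), Dlx4 by 2.57 (SE 0.42, adjusted p = 0.0108; 2.31 with the 3 maxilla arrays under the filter level set to it), Dlx5 by 2.10 (SE 0.32, adjusted p = 0.0075) and Dlx6 by 2.66 (SE 0.32, adjusted p = 0.0019). Leaving out a knockout replicate left 1 or 2 of these 4 calls, with differences between 1.91 and 2.71. In those fits 1 to 6 of all 13837 genes rose. At the distal ends 1 of the 6 rose, Dlx6 by 1.36 (SE 0.32, adjusted p = 0.0446), against 0.549% of all genes, and this call was lost when any knockout replicate was left out. There Dlx5 differed by 0.47 (SE 0.32), Dlx4 by 0.09 (SE 0.42) and Dlx3 by -0.06 (SE 0.41). Other tissues moved with the jaw. Of 7 skeletal muscle markers that passed the filter 4 rose in the knockout mandible, with a mean level per array between 8.75 and 10.37, against 5.59 and 9.67 in the maxilla. Of 7 neuron markers 4 fell, against 168 of all 13837 genes. The neuron mean per array lay between 6.39 and 7.93 in the mandible, against 8.21 and 10.27 in the maxilla. The part of these tissues in the result was not tested. Forebrain interneurons also express Dlx genes. Of their 6 markers on the array 2 passed the filter, and Gad1, Gad2, Gsx2 and Nkx2-1 did not. Of the 2 that passed, 1 fell in the knockout mandible over both ends (median difference of the 2, -1.02). At the distal ends 1 fell too (median -1.22), where 90 of all genes fell. The part of such cells in the result was not tested. In such bulk samples fewer cells of a type and less RNA per cell cannot be told apart.

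**Figure D2:**
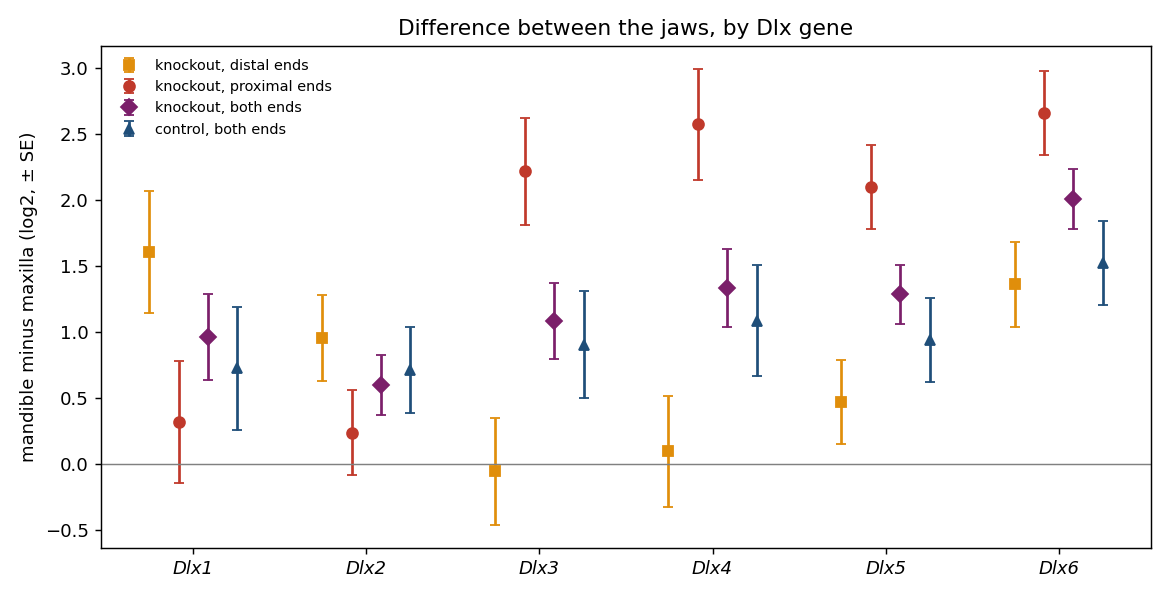
Mandible minus maxilla difference (log2, ± SE from the limma fit) of each Dlx gene at the distal ends, the proximal ends and both ends of knockouts (n = 4 per part) and over both ends of controls (n = 2 per part). Dlx3 to Dlx6 differ by 2.10 to 2.66 at the proximal ends of knockouts, where Dlx1 and Dlx2 differ by 0.32 and 0.24.

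In the controls all 6 genes averaged higher in the mandible, and none passed the test. Dlx6 averaged 10.45 and 10.71 in the mandible of controls 1 and 2, against 9.56 and 8.55 in the maxilla. Its difference of 1.52 (SE 0.32) did not pass (adjusted p = 0.0669, or 0.0473 with the replicate block), where 0.0506% of all genes rose (0.166% with the block). It also passed with a term for the 3' minus 5' signal (1.53, adjusted p = 0.0317) and with control 1 left out (2.16, adjusted p = 0.0484), where 0.672% and 0.173% of all genes passed in either direction, and differed by 0.89 with control 2 left out (adjusted p = 0.923). Dlx5 averaged 10.94 and 11.13 in the mandible, against 10.09 and 10.12 in the maxilla, a difference of 0.94 (SE 0.32, adjusted p = 0.442). The control differences of Dlx1, Dlx2, Dlx3 and Dlx4 were 0.72, 0.71, 0.90 and 1.09, none past the test. Control 1 and control 2 lay far apart for Dlx3, 1.59 and 0.22. The change in jaw difference between knockout and control, tested as an interaction, was 0.49 (SE 0.39) for Dlx6 and 0.35 (SE 0.39) for Dlx5. It passed for 0 of 6 Dlx genes and 0% of all genes in limma (107 genes at an unadjusted p under 0.05, no Dlx gene among them). The Dlx6 value rested on the controls: it was -0.15 with control 1 left out and 1.12 with control 2 left out, neither past the test over all genes.

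Along the knockout mandible, Dlx3 and Dlx4 were lower at the distal than at the proximal end in 4 of 4 knockout replicates. Dlx4 differed by -2.03, -2.002, -2.18 and -2.13 in knockouts 1 to 4, a mean of -2.09 (SE 0.42). Dlx3 differed by -1.77, -1.87, -1.41 and -1.62, a mean of -1.67 (SE 0.41). The 4 knockout replicates thus lay within a narrow range for both genes. Neither passed the fit of all arrays (adjusted p = 0.0771 and 0.192), in which 0.0361% of all genes fell. With the replicate number as a block both fell (adjusted p = 0.0470 each), against 0.224% of all genes. Leaving out control 2, or control 1, leaves a single control per part and takes the spread from the knockouts. The mean knockout differences of Dlx4 and Dlx3 are the same in those fits (-2.09 and -1.67). Control 1 differed by -2.10 for Dlx4 and -0.71 for Dlx3, and control 2 by 1.87 and 0.93. Dlx5 differed by -1.91 and -1.43 in knockouts 1 and 2 and by -0.32 and -0.54 in knockouts 3 and 4 (mean -1.05, SE 0.32, adjusted p = 0.419). Dlx6 differed by -0.45 (SE 0.32), and knockout 3 went the other way, with 0.24. Epithelial markers averaged between 10.38 and 10.53 in these distal arrays, against 9.96 and 10.47 in the proximal ones, with 0 of 12 past the test; their part in the result was not tested.

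Along the knockout maxilla Dlx3 to Dlx6 averaged higher at the distal end, and no difference passed. Dlx6 was higher distally by 0.96, 0.29, 1.90 and 0.27 in knockouts 1 to 4 (mean 0.85, SE 0.32, unadjusted p = 0.0156, limma adjusted p = 1.00). Dlx5 was higher by 0.23, 0.72, 1.09 and 0.27 (mean 0.58, SE 0.32). Dlx3 and Dlx4 differed by 0.61 (SE 0.41) and 0.40 (SE 0.42), each higher distally in 3 of 4 knockouts. The difference between the mandible's and the maxilla's end differences was -2.28 (SE 0.57) for Dlx3, -2.48 (SE 0.60) for Dlx4, -1.63 (SE 0.45) for Dlx5 and -1.30 (SE 0.45) for Dlx6. For Dlx1 and Dlx2 it was 1.29 (SE 0.66) and 0.72 (SE 0.46). None passed over all genes (limma adjusted p of 0.379 for Dlx4 and at least 0.443 for the others; 0 genes called of all tested, 353 at an unadjusted p under 0.05). With control 1 or control 2 left out, which leaves a single control per part, the Dlx4 value is the same (-2.48).

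In the controls the ends of a jaw disagreed between the replicates for most members. Dlx1 read 9.48 and 10.72 in the distal mandible of controls 1 and 2, against 10.38 and 9.06 in the proximal mandible, and in the maxilla 8.99 and 9.06 distally, against 10.17 and 8.54 proximally. Dlx2 read 9.94 and 10.95 in the distal mandible, against 10.77 and 9.77 in the proximal mandible, and in the maxilla 8.99 and 9.73 distally, against 10.25 and 9.62 proximally. For both genes control 1 was lower distally and control 2 higher in either jaw. Dlx4 read 6.06 and 8.35 in the distal mandible, against 8.15 and 6.48 in the proximal mandible, and Dlx3 read 8.84 and 9.999, against 9.54 and 9.06. Dlx5 read 10.69 and 11.34 in the distal mandible, against 11.20 and 10.93 in the proximal mandible, and Dlx6 read 10.13 and 10.89, against 10.77 and 10.53. In the mandible all 6 genes were thus lower distally in control 1 and higher distally in control 2. In the maxilla Dlx5 read 9.88 and 10.06 distally, against 10.30 and 10.17 proximally, and Dlx6 9.59 and 8.17, against 9.54 and 8.93. None of the 6 passed limma's test between the ends of either control jaw, where 0% of all genes fell and 0 rose (8 genes in the mandible and 191 in the maxilla at an unadjusted p under 0.05).

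**Figure D3:**
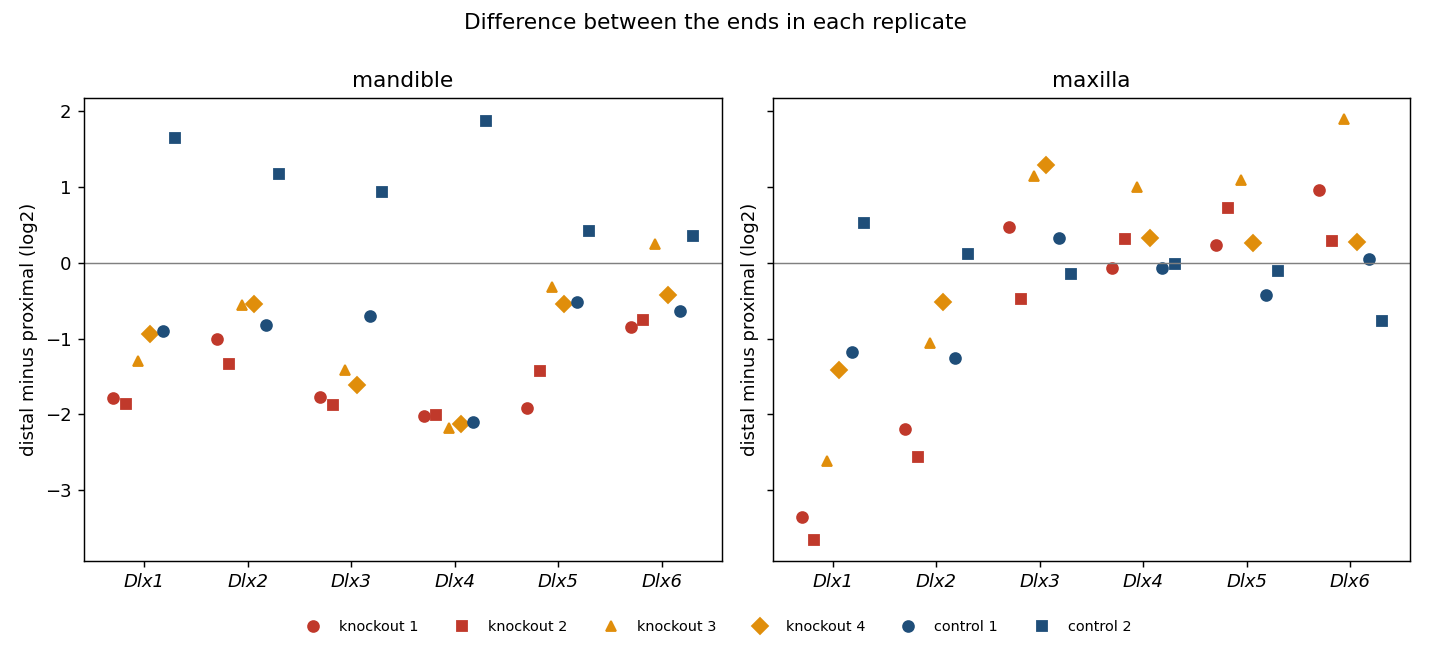
Distal minus proximal difference (log2) of each Dlx gene in the mandible (left) and maxilla (right) of each replicate, knockouts left of controls within a gene. All 4 knockouts and control 1 lie near -2.1 for Dlx4 in the mandible, where control 2 lies at 1.87.

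The noncoding transcripts of the loci varied with their neighbours. Dlx1as, transcribed across Dlx1, read 9.14, 8.74, 7.85 and 9.76 in the distal mandible of knockouts 1 to 4, against 4.18, 4.12, 4.21 and 6.20 in the distal maxilla. At the proximal ends it read 11.45, 11.62, 11.05 and 11.06 in the mandible, against 6.21, 8.06, 7.72 and 9.62 in the maxilla. The jaws did not overlap for Dlx1as at either end, although Dlx1 itself overlapped at the proximal ends. Of these 4 transcripts 3 rose in the knockout mandible over the maxilla, against 1.14% of all genes: Dlx1as by 3.79 (SE 0.68, adjusted p = 0.0045), Dlx4os by 1.64 (SE 0.34, adjusted p = 0.0125) and Dlx6os1, from the Dlx5 and Dlx6 region known for its enhancer RNA, by 1.81 (SE 0.44, adjusted p = 0.0355). Dlx6os2 differed by 0.80 (SE 0.21, adjusted p = 0.0619) and exceeded the filter level on 2 of 24 arrays, both from the knockout proximal mandible. Proximally Dlx4os rose by 2.95 and Dlx6os1 by 3.49 (adjusted p = 0.0105 and 0.0260), and distally they differed by 0.32 (SE 0.48) and 0.13 (SE 0.63). Dlx1as differed by 3.39 proximally (SE 0.96) and did not pass there (limma adjusted p = 0.3465). Distally Dlx1as rose (adjusted p = 0.0392). There 3 of the 4 maxilla arrays lay under the filter level, so the size of the difference is not resolved. It was 4.19 as measured (SE 0.96) and 2.77 with those arrays set to the filter level, and the difference over both ends was then 3.08.

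Likeness of position pattern was measured as Pearson's r over the 24 arrays after subtracting from each array the mean of its genotype and replicate number; arrays share replicate numbers, and the values are a description. Dlx1 was most like Dlx2 (r = 0.97), then Barx1 (0.95), a homeobox gene of the molar region and jaw mesenchyme, and Col23a1 (0.86), a transmembrane collagen. Dlx2 was most like Dlx1, Barx1 (0.89) and Dlx1as (0.83). Dlx4 was most like Dlx4os (0.99), Dlx3 (0.91) and 3110099E03Rik (0.91). Dlx3 followed Dlx4, Dlx4os (0.89) and Disp1 (0.85), which encodes a protein that releases Hedgehog ligands. Dlx5 was most like Dlx6os1 (0.91), Dlx6 (0.90) and Dlx4 (0.86). Dlx6 was most like Dlx5, Pitx1 (0.86), a homeobox gene of the lower jaw and hind limb, and Pamr1 (0.85). Over the 16 knockout arrays alone, r was 0.98 for Dlx1 with Dlx2, 0.94 for Dlx3 with Dlx4 and 0.91 for Dlx5 with Dlx6. Between pairs it was 0.18 for Dlx1 with Dlx6 and 0.88 for Dlx4 with Dlx5.

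**Figure D4:**
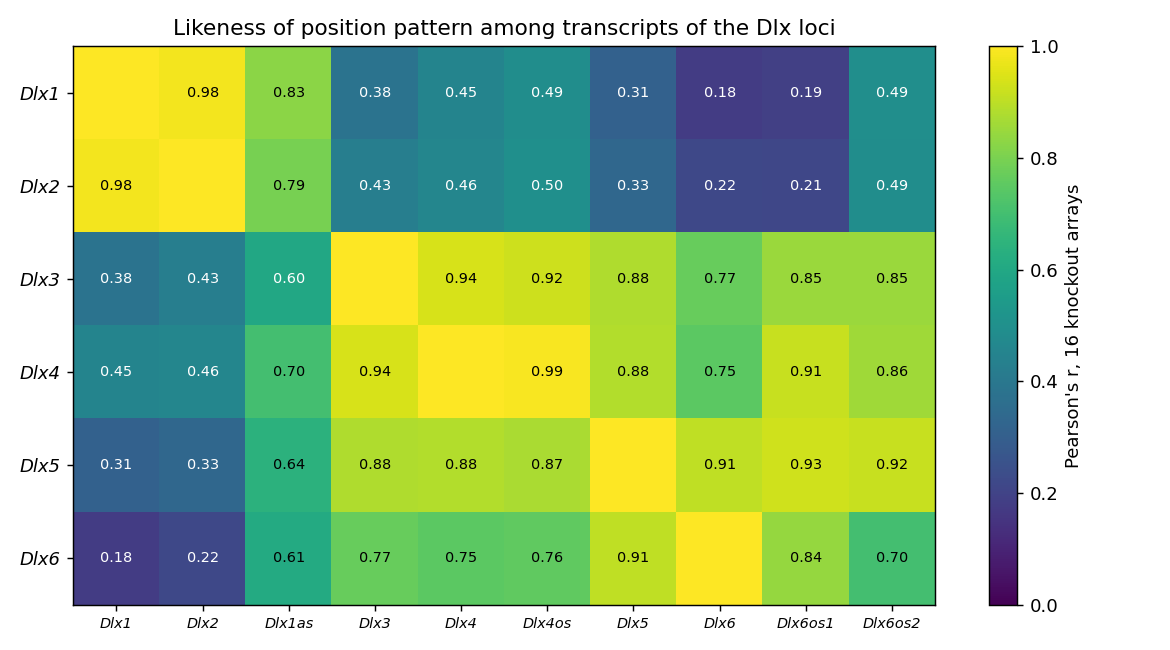
Pearson's r of position pattern between each Dlx gene (rows) and the transcripts of the Dlx loci (columns) over the 16 knockout arrays, after subtracting the mean of each replicate number. Dlx1 and Dlx2 form a block at 0.98 and reach 0.18 to 0.46 with Dlx3 to Dlx6, which reach 0.75 to 0.94 among themselves.

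The nearest genes outside the pairs passed none of these tests. Metap1d and Itga6 flank Dlx1 and Dlx2, Sem1 and Sdhaf3 flank Dlx6 and Dlx5, and Itga3 and Tac4 flank Dlx3 and Dlx4. Tac4 did not pass the filter. The other 5 did not pass between the knockout jaws, at the proximal ends, along either jaw or between genotypes over all parts. Their jaw differences in knockouts lay between -0.19 for Itga6 (SE 0.15) and 0.22 for Metap1d (SE 0.33).

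Genes around the Dlx code were given by list. Of 10 lower jaw transcription factors 8 were on the array and 7 passed the filter, and 4 of these rose in the knockout mandible over the maxilla: Hand2 by 4.33 (adjusted p = 7.2e-05), Pitx1 by 2.09 (adjusted p = 7.2e-05), Gsc, a homeobox gene of the ear and lower jaw, by 1.502 (adjusted p = 0.0036) and Barx1 by 1.27 (adjusted p = 0.0296). The median difference of the 7 was 1.35, against -0.02 over all genes. Of all 13837 genes tested, 158 rose (1.14%) and 168 fell in the knockout mandible. Along the knockout mandible 1 of the 7 fell distally, the homeobox gene Gbx2 (adjusted p = 0.0227), against 0.0361% of all genes. Its 4 distal arrays lay between 4.04 and 5.78, all under the filter level, against 6.97 and 8.88 proximally, so Gbx2 was at least 3.77-fold lower distally when the filter level stands for the distal value. Of 7 upper jaw transcription factors 1 fell in the mandible, Eya1, a transcriptional cofactor and phosphatase, by 1.22 (adjusted p = 0.0017), with a list median of -0.46. Pou3f3, a marker of the upper jaw, differed by -1.33 (SE 0.70, adjusted p = 0.585). Of 8 homeobox genes shared by both jaws 1 fell, Prrx2 by 1.01 (adjusted p = 0.0240), with a median of -0.26. None of 11 endothelin pathway genes and none of 6 early inducing signals, such as Fgf8 and Bmp4, passed between the knockout jaws, with medians of 0.05 and -0.41. Edn1, the ligand that acts on arch mesenchyme, differed by 0.05 (SE 0.13) and Mef2c, a transcription factor downstream of its receptor, by 0.16 (SE 0.32).

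Between genotypes, Dlx6 averaged lower in the knockouts in both jaws, and the difference did not pass over all genes. Averaged over the 4 parts, Dlx6 read 8.95, 8.59, 8.95 and 9.15 in knockouts 1 to 4, against 10.01 and 9.63 in controls 1 and 2. All knockout means lay below both control means, which held for 1 of the 6 Dlx genes in this direction and for 15.4% of all genes. The difference was -0.91 (SE 0.19, unadjusted p = 0.0033, limma adjusted p = 0.597). In the mandible Dlx6 lay between 9.61 and 10.23 in knockouts, against 10.45 and 10.71 in controls, a difference of -0.66 (SE 0.20, adjusted p = 0.480). In the maxilla it lay between 7.57 and 8.15, against 8.55 and 9.56, a difference of -1.15 (SE 0.31, adjusted p = 0.878). No gene passed limma's test over all parts, in the mandible or in the maxilla (0% lower in each; 965, 1263 and 526 genes at an unadjusted p under 0.05), so 0 of 6 Dlx genes did. With the replicate number as a block, which leaves knockouts 1 and 2 and pairs numbers that mark no shared embryo across genotypes, 3 of 6 passed over all parts and 4 of 6 in the mandible, against 46.2% and 63.3% of all genes. Without the block, knockouts 1 and 2 alone gave the same counts, against 52.6% and 63.2% of all genes. A term for the 3' minus 5' signal gave 1 of 6 in the mandible, Dlx6 (-0.48, adjusted p = 0.0359), against 14.8% of all genes. These shares of Dlx genes lay near those of all genes.

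Averaged over the 4 parts, the other 5 Dlx genes overlapped between knockouts and controls. Dlx5 averaged 9.97 and 9.64 in knockouts 1 and 2 and 10.39 and 10.56 in knockouts 3 and 4, against 10.51 and 10.63 in controls, a difference of -0.43 (SE 0.27, adjusted p = 0.707). Knockouts 1, 2 and 3 lay below both controls, and knockout 4 between them. Dlx1 averaged 8.82 and 8.52 in knockouts 1 and 2 and 9.08 and 9.46 in knockouts 3 and 4, against 9.75 and 9.35 in controls, a difference of -0.58 (SE 0.28, adjusted p = 0.707). Here too knockouts 1, 2 and 3 lay below both controls and knockout 4 between them. Dlx2 averaged 9.96 ± 0.14 in knockouts (SD, n = 4) and 10.004 ± 0.02 in controls (SD, n = 2), Dlx3 9.12 ± 0.28 and 8.91 ± 0.73, and Dlx4 6.76 ± 0.32 and 6.72 ± 0.41. These 3 genes differed by -0.04 (SE 0.12), 0.21 (SE 0.32) and 0.05 (SE 0.26), less than the spread between replicates. Within single jaws Dlx1 and Dlx5 each separated once. Dlx1 lay between 9.23 and 9.66 in knockout mandibles, against 9.89 and 9.93 in controls (-0.46, SE 0.16, limma adjusted p = 0.511). Dlx5 lay between 8.84 and 9.94 in knockout maxillae, against 10.09 and 10.12 in controls (-0.60, SE 0.31, limma adjusted p = 0.878). In the other jaw both overlapped. The share of all genes that separate within a jaw was not counted.

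Set against the controls one array set at a time, with the controls shared by both comparisons, the knockouts gave different counts. In knockouts 3 and 4, 0 of the 6 Dlx genes fell, against 1.29% of all genes. Dlx6 differed there by -0.77 (SE 0.16, limma adjusted p = 0.0908, or 0.0215 with control 2 left out and a difference of -0.96), Dlx1 by -0.28 (SE 0.20) and Dlx5 by -0.09 (SE 0.09). In knockouts 1 and 2, 3 of 6 fell, against 31.7% of all genes: Dlx6 by 1.04 (SE 0.18, adjusted p = 0.0093), Dlx1 by 0.88 (SE 0.18, adjusted p = 0.0145) and Dlx5 by 0.76 (SE 0.13, adjusted p = 0.0086). Without knockout 2 the call of Dlx5 remained and those of Dlx1 and Dlx6 were lost (adjusted p = 0.0917 and 0.0601), and without knockout 1 that of Dlx1 was lost (adjusted p = 0.0577). With a term for the Xist level, which follows the sex of the embryo, Dlx6, Dlx1 and Dlx5 differed by -0.65, -0.54 and -0.43 and did not pass, in a fit with 1 residual degree of freedom that called 15.1% of all genes in either direction. A term for the 3' minus 5' signal also left 1 residual degree of freedom and called 0% of all genes, so the loss of these 3 calls in that fit is no result about the Dlx genes. The same arrays differed in other tissues. Of the 8 facial mesenchyme markers 4 fell and 1 rose in knockouts 1 and 2 (median difference -0.50), and 0 passed in knockouts 3 and 4 (median 0.0085). Of the 8 endothelial markers 7 fell in knockouts 1 and 2 (median -0.64) and 1 fell in knockouts 3 and 4 (median -0.09). The median over all genes was -0.06 and -0.03 in the same order. Erythroid markers averaged between 11.33 and 12.01 in knockouts 1 and 2, against 10.23 and 10.48 in controls, and 5 of the 5 that passed the filter rose, against 20.9% of all genes. Markers of cartilage and bone, which express Dlx5, averaged between 7.15 and 7.92 in knockouts 1 and 2 and between 7.67 and 8.82 in knockouts 3 and 4, against 8.56 and 9.69 in controls. Of these 7 markers 6 fell in knockouts 1 and 2 and 1 fell in knockouts 3 and 4, and their part in the Dlx values was not tested.

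**Figure D5:**
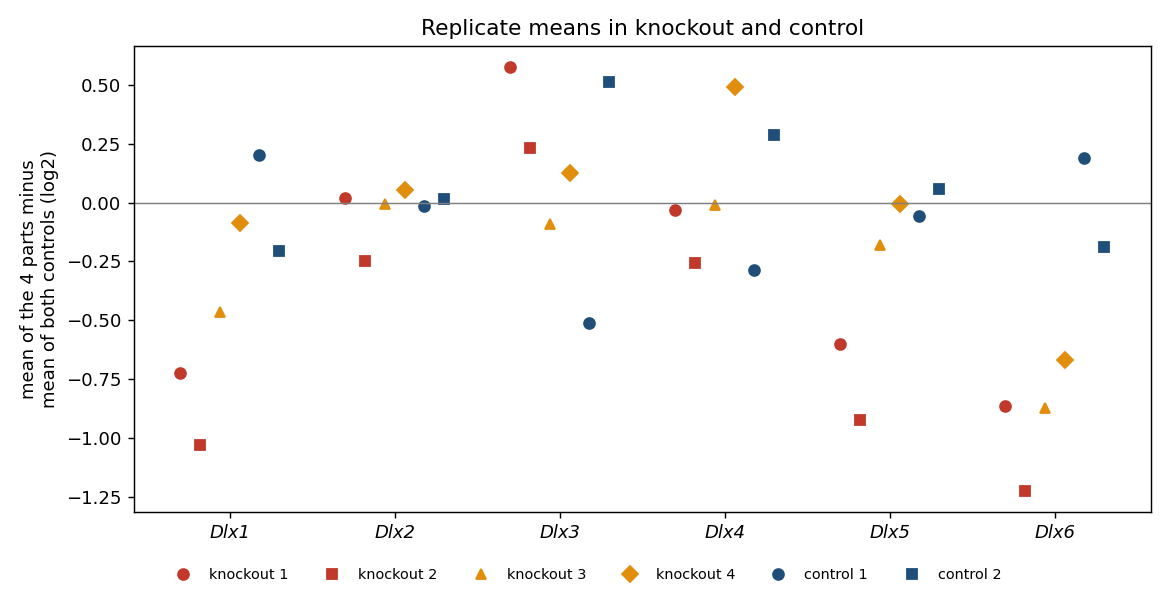
Mean of the 4 jaw parts of each replicate minus the mean of both controls (log2, vertical axis), for each Dlx gene, knockouts left of controls. Dlx6 lies below both controls in 4 of 4 knockouts, and Dlx1 and Dlx5 lie lower in knockouts 1 and 2 than in knockouts 3 and 4.

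The gene lists were compared with the controls in the same way. Of the 11 endothelin pathway genes 0 passed over all parts and in knockouts 3 and 4, and 6 fell in knockouts 1 and 2, where 31.7% of all genes fell, among them Mef2c by 1.38 (adjusted p = 0.0015), Gnaq, a G protein subunit, by 0.87 (adjusted p = 0.0018) and Ednrb, a receptor, by 1.23 (adjusted p = 0.0266). Edn1 differed by -0.05 (SE 0.17) over all parts. Of the 7 lower jaw factors 1 fell in knockouts 3 and 4, Gsc by 0.64 (adjusted p = 0.0486), against 1.29% of all genes. In knockouts 1 and 2, 2 fell and 1 rose, against 31.7% and 20.9% of all genes. Gsc was among those that fell there, by 0.45 (adjusted p = 0.0078). Over all parts Gsc differed by -0.55 (SE 0.11, adjusted p = 0.589). Hand2 differed by -0.25 (SE 0.36) over all parts. Of the 4 noncoding transcripts 1 fell in knockouts 1 and 2, where 31.7% of all genes fell. Dlx6os2 was called higher there, where 20.9% of all genes rose. Dlx6os1 fell in knockouts 1 and 2 by 1.35 (SE 0.12, adjusted p = 0.0020) and differed by -0.10 (SE 0.21) in knockouts 3 and 4. Dlx6os2 differed by 0.71 (SE 0.08, adjusted p = 0.0034) in knockouts 1 and 2 and by 0.12 (SE 0.09) in knockouts 3 and 4. It exceeded the filter level only in the proximal mandibles of knockouts 1 and 2 (6.76 in each). Dlx6os2 thus entered the tests only through arrays of the set in which it was called. This call therefore cannot be read as a result, and the size of the difference is not resolved.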

How the data were processed

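Gene expression was measured on 24 Affymetrix Mouse430_2 arrays. The authors summarised each probe set on a log2 scale by RMA, per the submitters' processing notes. Its version, and whether all arrays went through it together, is not given in the sources used here. Of 45101 probe sets, 34945 carry 1 gene symbol, 932 several and 9160 none, with 64 control features left out. Symbols were matched to RefSeq (GRCm38.p6) for 34741 probe sets. The probe set with the highest mean stood for each of 18193 genes, and 13837 genes above the 40th percentile (log2 6.07) on at least 2 arrays were tested with limma 3.58.1 (R 4.3.3), 2-sided, with Benjamini-Hochberg adjustment over them and a threshold of 0.05. Jaws, ends and interactions were contrasts of 8 group means in 1 fit. Genotypes were compared on means over the parts of each replicate number, for all knockouts and for each array set. The procedure was tested on simulated data.

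Same-numbered parts of the knockouts deviated together from their group means (r between 0.38 and 0.83 in 24 of 24 pairs). Those means mix the knockout array sets, so parts of the same set can deviate together whatever their number. Parts with different numbers were not compared, so this r cannot decide whether the number pairs parts. The replicate block therefore assumes such pairing within a genotype, which no label gives. Across genotypes the number marks no shared embryo. p-values measure only the spread between these samples, which may be technical in part.

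Named were the Dlx genes, the members of the lists with the smallest p (at most 4 a list), the 3 genes most like each Dlx gene in position pattern, and the neighbours of each pair. Some list members, such as Edn1 and Mef2c between the knockout jaws, were named although their p was not among the smallest. The members, lists and comparisons were chosen with earlier results of these data known. The contrast between the end differences of the knockout jaws, and leaving out a control in comparisons of ends, were added after seeing the data, as were differences with values under the filter level set to that level. Promoter sequences are from RefSeq (GRCm38.p6).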

Additional observations from a re-analysis of the deposited data

Results flagged for a closer look

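Dlx5 moved in opposite directions between groups in 2 comparisons. In the maxilla it was higher distally in 4 of 4 knockouts (0.23 to 1.09, mean 0.58, log2) and lower distally in both controls (-0.42 in control 1 and -0.11 in control 2); the difference was not tested for the maxilla alone, and control 2 went against its end labels. Within the knockouts, Dlx5 was lower distally in the mandible of all 4 knockout replicates and higher distally in the maxilla of all 4, a difference of -1.63 (SE 0.45, unadjusted p = 0.0019, limma adjusted p = 0.594).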

How the results depend on the processing

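Limits: 2 controls per part, of which 1 went against its end labels; array sets that follow genotype; Dlx4 close to the filter level outside the proximal mandible. The single-gene differences were recomputed 867 times under the alternatives, which were centring arrays on their medians, no filter on low values, the mean of all probe sets of a gene, terms for the 3' minus 5' signal (RNA quality) or the Xist level (sex), the replicate block, leaving out a replicate, and each knockout array set alone. Of these 768 kept direction and side of the threshold, 39 newly passed, 41 no longer passed and 19 changed direction, 0 of them with a called value. The causes were not tested, except that leaving out a replicate or set leaves fewer arrays.

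Counts of Dlx genes called moved as follows. For the knockout jaws, the number of all genes that rose stands in brackets. Between these jaws, proximal counts of 4 (16) became 1 to 2 (1 to 6) without a knockout replicate. They became 1 (14) with knockouts 1 and 2 alone and 0 (1) with knockouts 3 and 4 alone. Distal counts of 1 (76) became 0 without the filter (63), with the sex term (57) and without any knockout replicate (15 to 36). They also became 0 with knockouts 1 and 2 alone (106) or 3 and 4 alone (5), and 2 with the RNA quality term (257). Between the control jaws, 0 became 1 with the RNA quality term, with the replicate block and without control 1. Along the knockout mandible, 0 became 1 with mean probe sets, the RNA quality term or knockouts 1 and 2 alone, and 2 with the replicate block. Along the knockout maxilla, 0 became 1 with mean probe sets, the RNA quality term or the replicate block. Counts for the knockout ends also moved without control 1 or control 2. Those fits hold a single control per part, and their counts are not read here. Between genotypes, the count over all parts went to 3 with the replicate block or with knockouts 1 and 2 alone, where 46.2% and 52.6% of all genes passed in either direction. In the mandible it became 1 with the RNA quality term (14.8% of all genes) and 4 with the replicate block or knockouts 1 and 2 alone (63.3% and 63.2% of all genes). These shares of Dlx genes are near those of all genes, and the block here pairs numbers that mark no shared embryo. In knockouts 3 and 4 it became 1 without control 2 (9.96% of all genes). In knockouts 1 and 2 it went to 0 with the RNA quality or sex term, where 0% and 15.1% of all genes passed, and to 1 without knockout 2. The replicate block changed no other call, and could not be fitted for knockouts 3 and 4, which share no number with a control. Over all genes, 5 fell distally along the knockout mandible in the fit of all arrays. With mean probe sets 4 fell there, with the RNA quality term 40, with the block 31 and with knockouts 1 and 2 alone 29. Along the knockout maxilla 1 gene fell distally in the fit of all arrays. With mean probe sets 4 fell there, with the RNA quality term 6 and with the block 5.

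The changes of direction concerned values that had not passed a test. Over all parts, Dlx4 (0.05) became -0.0087 with arrays centred, -0.11 with the sex term and -0.15 with the replicate block or knockouts 1 and 2 alone, and lay between -0.24 and 0.34 with a replicate left out. Dlx2 (-0.04) became 0.0044 with the RNA quality term and 0.0238 with knockouts 3 and 4 alone, and lay between -0.0776 and 0.0231 with a replicate left out. Dlx3 (0.21) lay between -0.30 without control 1 and 0.72 without control 2. Dlx5 in the mandible became 0.0437 with knockouts 3 and 4 alone. At the distal ends, Dlx3 became 0.19 with knockouts 1 and 2 alone and lay between -0.30 and 0.0336 with a replicate left out, and Dlx4 became -0.13 with knockouts 3 and 4 alone and lay between -0.0755 and 0.21. Dlx1 at the proximal ends became -0.0138 with knockouts 3 and 4 alone. The jaw interaction of Dlx6 lay between -0.15 without control 1 and 1.12 without control 2.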
